A study of Homo sapiens with 12 samples.

Results

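The comparison described here set the TNF-α response of granulocytes against that of promyelocytes. For each gene it was the log2 change with TNF-α in granulocytes minus the log2 change with TNF-α in promyelocytes. All 12 libraries of the series entered it, and of the 58288 annotated genes, 18124 passed an expression filter and were tested. The cells were HL-60/S4, an established promyelocytic leukemia line. Its undifferentiated promyelocytes were given vehicle (water, 3 libraries) or 16 ng/mL TNF-α (3 libraries) for 2 h, and granulocytes obtained by 4 days in 1 µM all-trans retinoic acid (ATRA) were given the same vehicle or TNF-α (3 libraries each). All 4 groups were kept in calcium supplemented media and had the same stated 8 passages, and every library came from a flask of its own. The study's methods state a lower cell density for granulocytes than for promyelocytes, so at the same TNF-α concentration the amount per cell differed. They also state that the medium of the granulocytes still held 1 µM ATRA. Neither can be told apart from cell type. The granulocytes were differentiated in culture from 1 leukemia line, and promyelocytes and granulocytes were treated in separate experiments, so cell type and experiment cannot be told apart, for levels and for the difference of responses alike. Levels were therefore not tested between cell types, and the test of each gene compared the 2 changes, each measured within its own experiment.

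TNF-α binds the receptors TNFR1 and TNFR2, whose adaptors and ubiquitin ligases activate the kinases IKK and MAPK. IKK marks the inhibitory IkB proteins for destruction, which frees NF-kB dimers to enter the nucleus and switch on cytokines, chemokines, adhesion molecules and their own inhibitors, including IkBα and A20. In neutrophil granulocytes TNF-α is known as a priming signal for adhesion, the oxidative burst and survival, whereas dividing promyelocytes still express cell cycle and azurophil granule genes.

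Libraries held 22829189 to 31895061 counts over all genes (median 28233190). Levels are given as CPM, counts scaled to a common library size after TMM normalisation. On this scale 3 counts, taken as the floor of detection, stood at 0.0946 to 0.136 CPM. The floor covers counting error only. The labels were checked on genes of differentiation. CD38, a surface enzyme induced by ATRA, was at 6.99 to 9.90 CPM in vehicle-treated promyelocytes and at 1110 to 1200 CPM in vehicle-treated granulocytes, the integrin subunit gene ITGAM was at 5.88 to 6.80 and 287 to 304 CPM, and MPO, the azurophil peroxidase, at 6150 to 6780 and 1930 to 2120 CPM. ELANE, neutrophil elastase, was low in promyelocytes (1.45 to 2.02 CPM) and at 0 to 0.0335 CPM in granulocytes. Of the genes listed for specific and gelatinase granules, LCN2, ARG1 and CRISP3 had no read in any library, and LTF, CAMP, CEACAM8, MMP8 and PGLYRP1 were too low to be tested.

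The promoters of 6 genes show the sequence side of the comparison, 250 bases before the annotated start each (RefSeq, GRCh38.p14), written 5′ to 3′ along the gene. In the upper 5 the capitals mark matches to the NF-kB site, and in the lowest they mark the CCAAT box read on the opposite strand (ATTGG). NFKBIA, which encodes IkBα, and BIRC3, a ubiquitin ligase of the TNFR1 complex, increased in both cell types and more in granulocytes. MAP3K8, a kinase upstream of ERK, increased in granulocytes, GIMAP8, a GTPase gene of the immune-associated family, had the smaller log2 change in granulocytes, and the responses of VCAM1, an adhesion molecule, were not called different. TOP2A, topoisomerase IIα, decreased in granulocytes.
NFKBIA, chr14:35404750-35404999, minus strand: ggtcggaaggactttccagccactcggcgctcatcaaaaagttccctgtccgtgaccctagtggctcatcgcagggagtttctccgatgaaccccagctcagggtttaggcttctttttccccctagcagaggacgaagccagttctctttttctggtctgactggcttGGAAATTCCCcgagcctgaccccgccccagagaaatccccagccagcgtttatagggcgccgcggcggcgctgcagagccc
BIRC3, chr11:102317234-102317483, plus strand: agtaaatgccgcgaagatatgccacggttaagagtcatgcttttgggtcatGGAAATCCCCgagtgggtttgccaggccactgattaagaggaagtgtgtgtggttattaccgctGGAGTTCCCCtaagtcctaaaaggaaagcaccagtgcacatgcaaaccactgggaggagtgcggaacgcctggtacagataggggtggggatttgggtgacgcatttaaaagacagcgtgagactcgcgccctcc
MAP3K8, chr10:30434396-30434645, plus strand: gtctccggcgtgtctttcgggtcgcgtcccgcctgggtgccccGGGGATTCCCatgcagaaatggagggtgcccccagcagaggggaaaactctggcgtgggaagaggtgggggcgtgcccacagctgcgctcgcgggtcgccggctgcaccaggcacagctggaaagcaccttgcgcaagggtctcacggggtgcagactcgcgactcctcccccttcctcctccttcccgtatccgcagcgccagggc
GIMAP8, chr7:150450380-150450629, plus strand: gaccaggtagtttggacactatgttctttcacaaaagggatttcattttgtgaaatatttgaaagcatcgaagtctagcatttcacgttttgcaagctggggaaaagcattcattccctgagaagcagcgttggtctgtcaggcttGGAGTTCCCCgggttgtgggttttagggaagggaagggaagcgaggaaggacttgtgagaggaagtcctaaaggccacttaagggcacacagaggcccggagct
VCAM1, chr1:100719492-100719741, plus strand: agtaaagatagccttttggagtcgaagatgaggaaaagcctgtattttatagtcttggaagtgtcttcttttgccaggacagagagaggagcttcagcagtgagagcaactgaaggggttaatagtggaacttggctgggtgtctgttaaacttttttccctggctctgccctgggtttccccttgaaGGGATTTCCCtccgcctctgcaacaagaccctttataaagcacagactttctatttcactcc
TOP2A, chr17:40417897-40418146, minus strand: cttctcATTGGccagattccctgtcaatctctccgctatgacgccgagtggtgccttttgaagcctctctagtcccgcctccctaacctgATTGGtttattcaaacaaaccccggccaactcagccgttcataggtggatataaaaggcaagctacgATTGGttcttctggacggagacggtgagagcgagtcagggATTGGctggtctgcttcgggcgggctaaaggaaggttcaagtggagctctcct

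Windows were printed only where they hold the marked motif, so its presence in them is not a result. The shares were counted on both strands over windows from 250 bases before to 50 after the start. The NF-kB site was found in 64.7% of the 17 windows of the NF-kB and IkB genes. Its share was 17.9% in the 67 windows of genes that increased less in granulocytes and 11.8% in the 534 of those increasing more. Genes whose increase was lost in granulocytes had it in 10.8% of 120 windows. In the other classes counted, defined below, the share was 4.09% to 7.83%. Over all genes tested the share was 6.72% (15203 windows of 10666 genes with an entry) and among all promoters 5.91%. The AP-1 site (TGANTCA) was in 13.4% of the windows of genes that increased less in granulocytes. Genes that decreased less there had it in 13% of 46 windows. Those that rose in promyelocytes but fell in granulocytes had it in 9.09% of 55 windows. Its share was 5.10% over all genes tested and 7.71% among all promoters. The CCAAT box (CCAAT) was in 70.6% of the 68 windows of mitosis genes and in 34.8% of those of all genes tested. The cell cycle homology region (TTNGAA) was also in 70.6% of the mitosis windows, beside 26.1% of all tested. A match is a description of these letters and not of binding.

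The responses of 4331 genes differed between the cell types, 23.9% of the genes tested (edgeR's quasi-likelihood test of the interaction, Benjamini-Hochberg adjusted p under 0.05). The change was higher, meaning more positive, in granulocytes for 2535 genes (14%) and lower for 1796 (9.91%). Among the genes called, the median size of the difference was 0.507 on the log2 scale, 882 differed by at least 1 (616 higher, 266 lower) and 255 by at least 2. The split between the directions moved with the scaling of the libraries: 58.5% of the calls were higher with TMM, 47.9% with DESeq2's size factors, 51.0% with TMM factors computed within each cell type and 49.5% with each response centred on its median. It was 46.1% in DESeq2, which also changed the test and the genes tested, and 43.1% without the expression filter. In the same fit, TNF-α changed 2973 genes in promyelocytes (16.4%), with 1393 increased (7.69%) and 1580 decreased (8.72%). In granulocytes it changed 7647 genes (42.2%), with 3934 increased (21.7%) and 3713 decreased (20.5%).

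Genes whose responses differed were sorted by the calls of the 2 single responses. Most of them, 2758 (63.7%), gained a response in granulocytes: 1567 increased and 1191 decreased there without a called change in promyelocytes. A response called in promyelocytes was lost for 343 genes (7.92%), of which 133 had increased and 210 had decreased. It was reversed for 233 genes (5.38%), with 58 that rose in promyelocytes but fell in granulocytes, and 175 the opposite. The change kept its direction and was enlarged in granulocytes for 681 genes (15.7%) and reduced for 100 (2.31%). For the remaining 216 genes (4.99%) neither response was called. Lost and reversed genes were the least settled of these counts: without vehicle-treated promyelocyte library 1 they numbered 227 and 153, and without TNF-α treated promyelocyte library 3 they numbered 510 and 354. The splits by direction also moved with the scaling. With DESeq2's size factors the gained genes numbered 1267 increased and 1559 decreased, and the lost ones 183 increased and 156 decreased. Of the reversed genes, 90 then rose in promyelocytes and 134 did the opposite. In DESeq2 itself the lost genes numbered 201 and 128 and the reversed ones 102 and 120, in the same order.

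**Figure D1:**
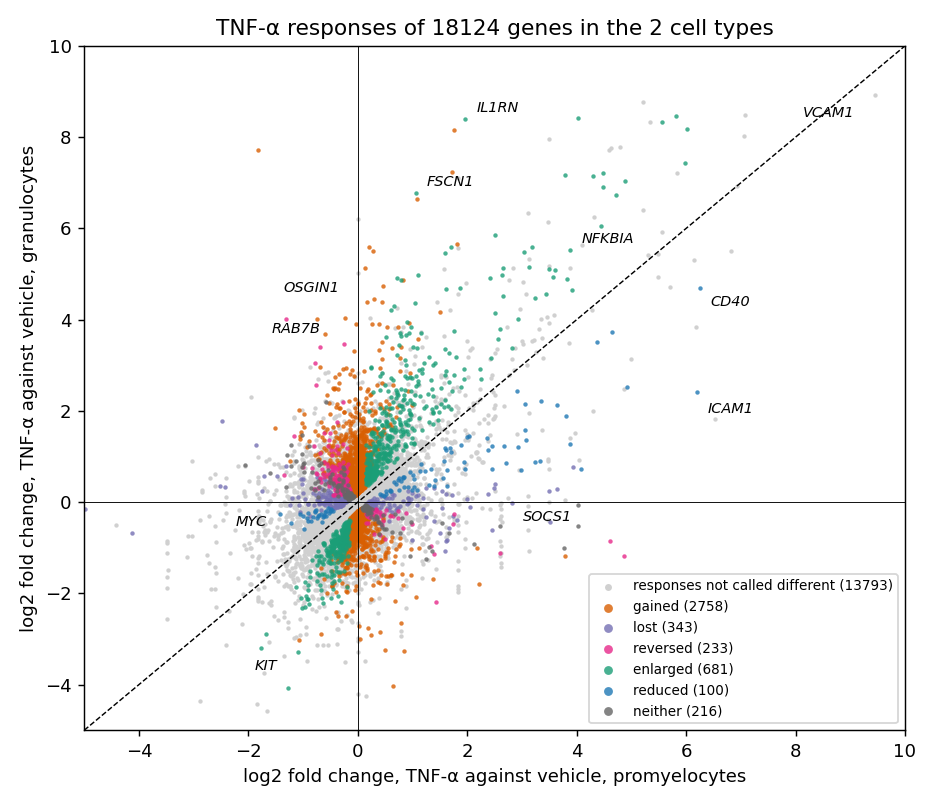
Log2 fold change with TNF-α against vehicle in promyelocytes (horizontal axis) and granulocytes (vertical axis) for the 18124 genes tested, with 4 genes outside the axes, coloured by the class of the difference. Gained genes (2758) lie along the vertical axis, enlarged genes (681) lie away from the dashed line of equal change on the side of the granulocytes, and ICAM1 and CD40, both reduced, lie below it.

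The classes differed in where they started. Genes that increased less in granulocytes had a median level of 10.1 CPM in vehicle-treated promyelocytes and 42.7 CPM in vehicle-treated granulocytes, and 51 of these 69 genes (73.9%) were more than 2-fold higher in vehicle-treated granulocytes, beside 3588 of all genes tested (19.8%). With TNF-α their medians were 26.5 and 80.2 CPM. For 48 of the 69 genes (69.6%, beside 66.0% of all genes tested) the change in CPM itself was the larger one in granulocytes.

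Genes with a gained increase started from similar medians, 39.8 CPM in promyelocytes and 32.0 CPM in granulocytes, and stood at 39.3 and 46.2 CPM with TNF-α. Genes with an enlarged increase went from 32.0 to 50.2 CPM in promyelocytes and from 30.3 to 90.2 CPM in granulocytes. Genes with a gained decrease had medians of 38.0 and 37.8 CPM in promyelocytes and of 39.8 and 29.5 CPM in granulocytes. Among genes with a lost increase, 49 of 133 (36.8%) were more than 2-fold higher in vehicle-treated granulocytes, beside 34.5% of those reversed from a promyelocyte increase. Their promyelocyte median with TNF-α (40.2 CPM) was near the granulocyte median with vehicle (38.3 CPM), as it was for gained decreases. Gene by gene, promyelocytes with TNF-α lay below vehicle-treated granulocytes for 54.9% of them and for 50.5% of all genes tested. These levels describe the 2 experiments side by side. In bulk RNA, fewer cells of a type and less RNA per cell cannot be told apart.

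**Figure D2:**
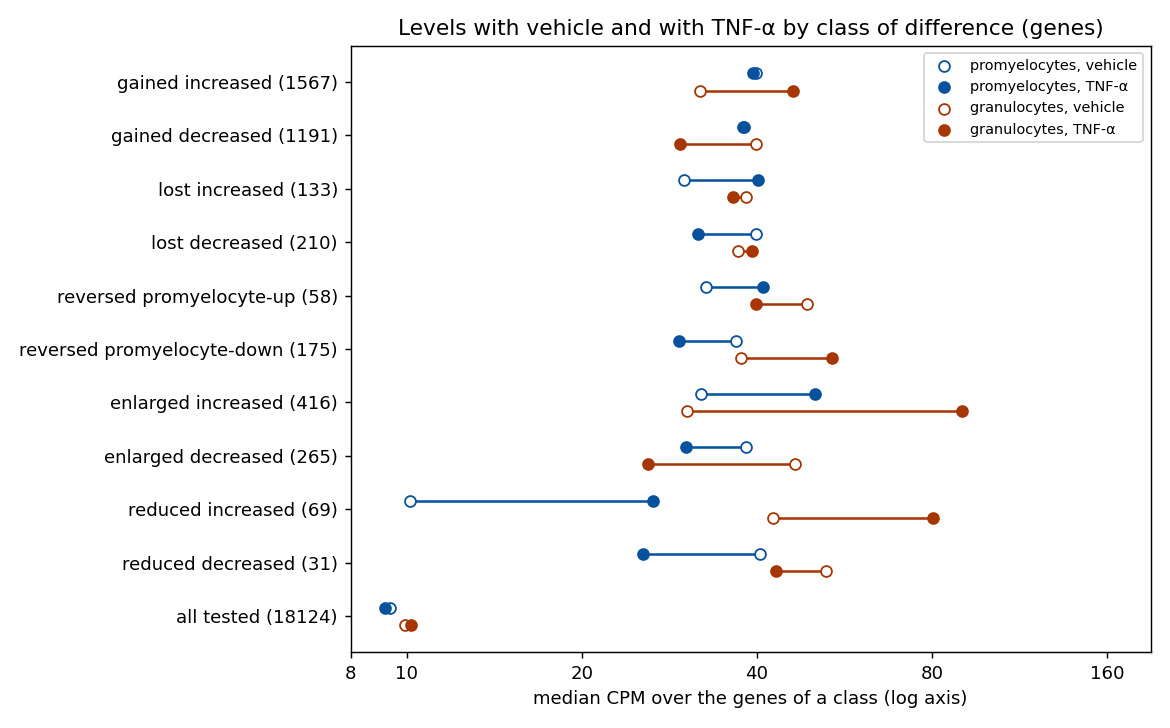
Median CPM (log axis) over the genes of each class, with vehicle (open circles) and TNF-α (filled circles), in promyelocytes (blue) and granulocytes (brown); the number of genes is in brackets. The class of reduced increases has the widest gap between the open circles, from 10.1 to 42.7 CPM.

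Genes named for their class exclude those of low mean level. They also exclude those whose TNF-α and vehicle libraries overlapped in a cell type with a called response. Among them the largest gained increase was that of SLAMF7, an immune cell receptor that binds itself on neighbouring cells. It was at 0.0654, 0.258 and 0.138 CPM in vehicle-treated promyelocytes and at 0.15, 0.25 and 0.221 CPM with TNF-α, then at 2.5, 1.85 and 2.35 CPM in vehicle-treated granulocytes and at 59.7, 59.5 and 59.0 CPM with TNF-α. The promyelocyte groups overlapped, with 2 to 7 counts per library, and the granulocyte groups lay far apart. The log2 changes were 0.46 and 4.74, a difference of 4.27 ± 0.617 (SE, edgeR adjusted p = 2.19e-06).

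OSGIN1, an oxidative stress response gene, stayed between 1.35 and 2.32 CPM in all 6 promyelocyte libraries. In granulocytes it went from 4.16, 3.74 and 3.79 to 90.8, 77.8 and 74.0 CPM, and the difference was 4.21 ± 0.232 (SE, edgeR adjusted p = 1.88e-15). SLAMF8, a relative of SLAMF7, went from 3.70, 4.67 and 4.73 to 34.6, 32.7 and 34.3 CPM in granulocytes (difference 3.16 ± 0.280) and was at 0.822 to 1.77 CPM in promyelocytes. The peptide hormone gene ADM, adrenomedullin, went from 2.62, 3.25 and 4.93 to 29.5, 23.1 and 24.1 CPM in granulocytes (difference 3.16 ± 0.339). In each of these genes the promyelocyte groups overlapped and the granulocyte groups did not, the latter being required by the naming rule. TNFAIP8L3, a phosphoinositide transfer protein, was the exception in level: it was at 4.11 to 5.65 CPM in all promyelocyte libraries, with 0 to 0.168 CPM in vehicle-treated and 0.896 to 1.08 CPM in TNF-α treated granulocytes (difference 3.40 ± 0.497).

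Gained decreases were smaller. CEACAM1, an adhesion receptor of granulocytes, was at 0.0736 to 0.221 CPM in promyelocytes, near the floor, and fell from 57.5, 59.6 and 63.9 to 25.5, 25 and 22.9 CPM in granulocytes, with a difference of -1.97 ± 0.514 (SE, edgeR adjusted p = 0.00427). PFKFB2, which makes the glycolytic regulator fructose-2,6-bisphosphate, fell from 6.78, 7.08 and 6.47 to 1.67, 1.47 and 1.54 CPM in granulocytes and was at 0.126 to 0.376 CPM in promyelocytes (difference -2.36 ± 0.520). TAPT1-AS1 fell from 5.31, 5.56 and 4.70 to 1.04, 1.79 and 1.67 CPM (difference -2.19 ± 0.391). These 3 genes were near the floor or under 1 CPM in promyelocytes, so their promyelocyte changes rest on few counts, from 2 to 30 per library. TRD-AS1, an antisense transcript at the T cell receptor delta locus, differed in this: it was at 3.92, 4.23 and 5.49 CPM with vehicle and 3.54, 3.36 and 3.66 CPM with TNF-α in promyelocytes, and fell from 1.00, 1.39 and 0.939 to 0.0904, 0.287 and 0.181 CPM in granulocytes, the last being 2 to 8 counts per library (difference -2.13 ± 0.428). For ZBTB7C, at 1 or 2 counts in the vehicle-treated promyelocyte libraries, the difference of -2.38 ± 0.830 passed the threshold (edgeR adjusted p = 0.0338) and did not in limma voom, with a minimum change of 1.2-fold, or without vehicle library 1 or 3 or TNF-α library 1 or 3 of the promyelocytes (edgeR adjusted p = 0.0592, 0.0795, 0.256 and 0.114).

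Among lost increases, SOCS1, an inhibitor of JAK kinases that limits cytokine signalling, went from 0.653, 1.03 and 0.622 CPM to 4.18, 5.47 and 6.43 CPM in promyelocytes. In granulocytes it was at 2.58, 2.75 and 3.12 CPM with vehicle and at 2.85, 3.04 and 2.40 CPM with TNF-α, with overlapping groups. The log2 changes were 2.81 and -0.02, a difference of -2.83 ± 0.303 (SE, edgeR adjusted p = 6.78e-09). HIC1, a transcriptional repressor, went from 1.05, 1.51 and 1.24 to 5.42, 4.54 and 5.20 CPM in promyelocytes and was at 248, 256 and 266 CPM with vehicle and 286, 263 and 255 CPM with TNF-α in granulocytes (difference -1.94 ± 0.146). HIC1 thus stood about as high in every granulocyte library whatever the treatment, and far above its promyelocyte level. The third named gene, the pseudogene MTCO1P11 (difference -1.33), shares its sequence with mitochondrial and other copies, so its reads are uncertain.

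CYBB, the catalytic subunit of the NADPH oxidase that makes superoxide, behaved like HIC1. It rose from 117, 109 and 112 to 221, 223 and 203 CPM in promyelocytes and was at 2077, 2148 and 2098 CPM with vehicle and 2115, 2152 and 2116 CPM with TNF-α in granulocytes (difference -0.92 ± 0.0775, edgeR adjusted p = 3.26e-11). Its partner NCF1, whose reads can be shared with near-identical pseudogenes, rose in both cell types and less in granulocytes (difference -0.54). The chemokine receptor CXCR4 rose in promyelocytes from 22.5, 17.1 and 18.2 to 42.5, 47.6 and 43.0 CPM and was at 7.89 to 9.99 CPM in all granulocyte libraries (difference -1.11 ± 0.142).

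Lost decreases included MYC, the growth-promoting transcription factor. It fell from 1993, 1883 and 1764 to 770, 764 and 858 CPM in promyelocytes. In granulocytes it was at 74.8, 78.7 and 82.0 CPM with vehicle and at 83.2, 73.0 and 70.9 CPM with TNF-α. The granulocyte groups overlapped, and the log2 changes of -1.24 and -0.05 differed by 1.19 ± 0.0901 (SE, edgeR adjusted p = 4.12e-12). FOSL2, an AP-1 subunit, fell from 60.9, 60.6 and 55.1 to 26.9, 23.0 and 27.1 CPM in promyelocytes and was at 26.9 to 32.7 CPM in the granulocyte libraries (difference 1.28 ± 0.106). The promyelocyte level of FOSL2 with TNF-α was close to its granulocyte level with vehicle. TNFRSF12A, the receptor of the cytokine TWEAK, fell from 10.8, 11.4 and 9.63 to 2.37, 3.32 and 3.72 CPM in promyelocytes and was at 16.4, 13.7 and 14.8 CPM with vehicle and 18.1, 18.9 and 16.3 CPM with TNF-α in granulocytes (difference 1.99 ± 0.170). The differences of LTBP3, a latent TGF-β binding protein, and ZFPM1, a cofactor of GATA factors, were 1.55 and 1.5.

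**Figure D3:**
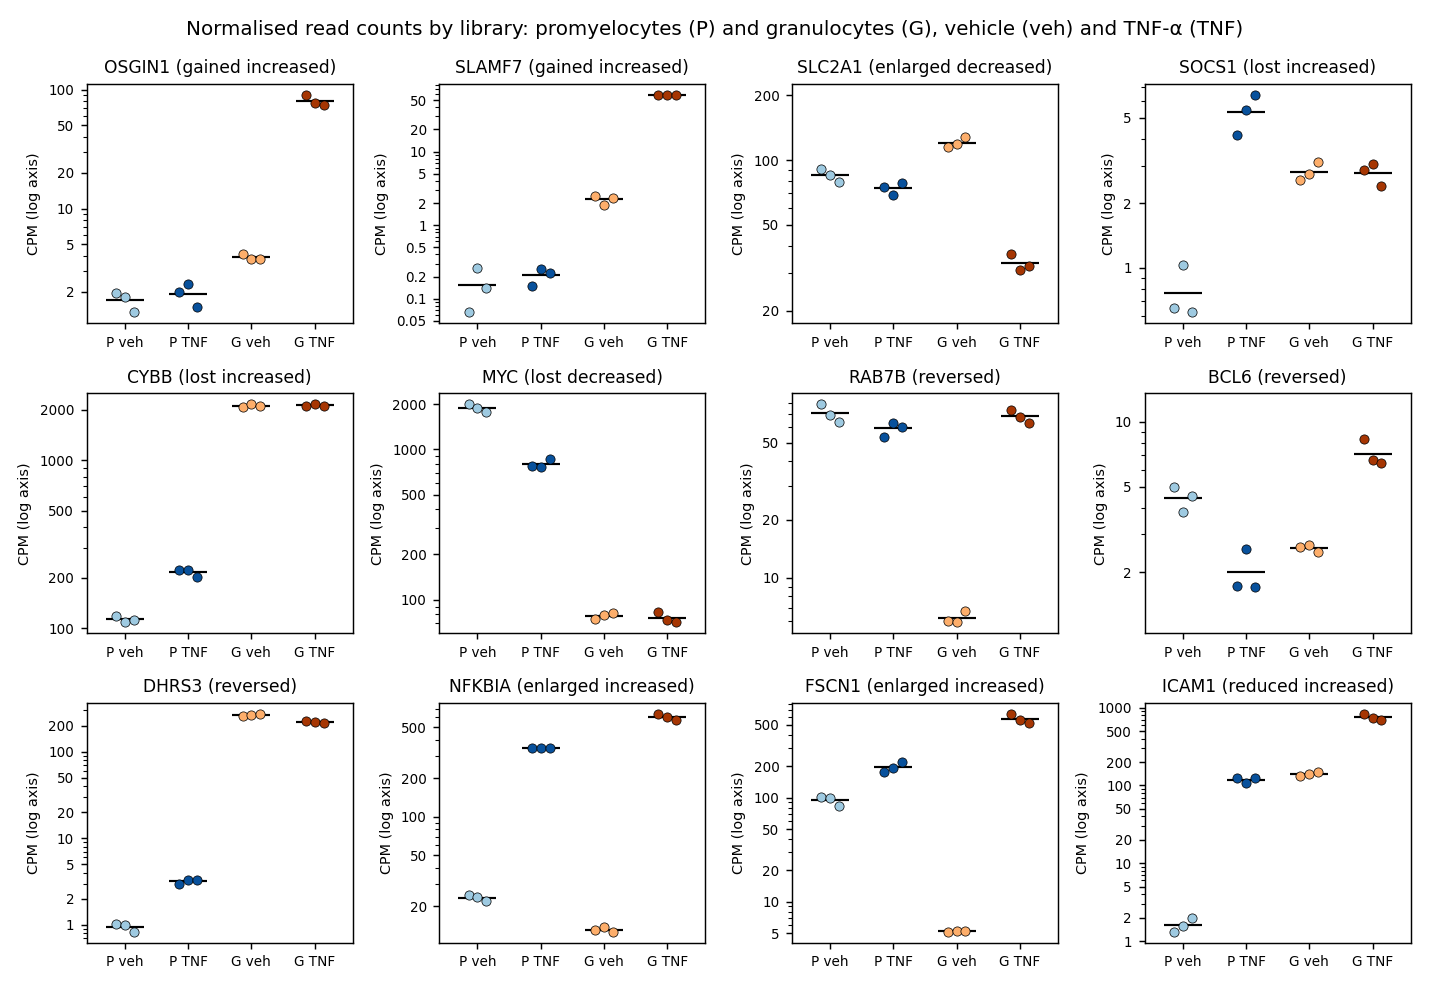
CPM by library (log axis, each panel with its own scale) for 12 genes of the different classes, with points for the 3 libraries of each group and bars at their means. The granulocyte groups of SOCS1, CYBB and MYC overlap, and those of FSCN1, NFKBIA, SLAMF7 and OSGIN1 are furthest apart in fold change.

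Of the 175 genes that decreased in promyelocytes and increased in granulocytes, GPR157, an orphan receptor, had the largest difference among the named ones. It was at 3.30, 2.61 and 3.14 CPM with vehicle and 1.92, 2 and 1.7 CPM with TNF-α in promyelocytes, and went from 1.31, 2.38 and 2.85 to 25.9, 21.0 and 23.8 CPM in granulocytes (difference 4.11 ± 0.252, edgeR adjusted p = 6.45e-14). Its decrease in promyelocytes had an edgeR adjusted p of 0.0118, and 0.0622 without vehicle library 1. RAB7B, a GTPase of late endosomes that acts on Toll-like receptors, went from 78.9, 69.7 and 64.2 to 53.7, 63.4 and 60.5 CPM in promyelocytes and from 5.97, 5.89 and 6.74 to 73.8, 68.0 and 63.5 CPM in granulocytes (difference 3.72 ± 0.118, edgeR adjusted p = 3.70e-20). The granulocytes with TNF-α thus reached the level of the promyelocytes, and the small promyelocyte decrease of RAB7B was not called without vehicle library 1 (edgeR adjusted p = 0.131) or without TNF-α library 1 (0.0844).

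SPRY4, an inhibitor of receptor tyrosine kinase signalling, moved towards a common level from both sides. It fell from 14.9, 15.2 and 12.8 to 7.41, 7.75 and 10.1 CPM in promyelocytes and rose from 0.308, 0.464 and 0.235 to 1.58, 2.37 and 2.04 CPM in granulocytes (difference 3.33 ± 0.311). BCL6, a repressor of inflammatory and B cell genes, fell from 5, 3.83 and 4.52 to 1.73, 2.57 and 1.70 CPM and rose from 2.62, 2.68 and 2.48 to 8.32, 6.63 and 6.42 CPM (difference 2.61 ± 0.246, edgeR adjusted p = 4.55e-10). No library of one treatment overlapped the other in either cell type for these genes, which the naming rule required, so it is not a result. FAM30A, a noncoding RNA gene, fell from 5.65, 6.29 and 6.49 to 3.50, 3.72 and 3.50 CPM in promyelocytes. In granulocytes its vehicle libraries held at most 3 counts, and TNF-α brought it to at least 4.03-fold that floor.

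Genes reversed the other way rose in promyelocytes. DHRS3, a retinal reductase that is itself induced by retinoic acid, rose from 1.01, 0.993 and 0.829 to 2.94, 3.29 and 3.34 CPM in promyelocytes and fell from 258, 264 and 270 to 228, 219 and 216 CPM in granulocytes (difference -2.01 ± 0.148, edgeR adjusted p = 1.67e-12). ICAM5, an adhesion molecule best known from neurons, was at 0.110 to 0.327 CPM with vehicle and 0.429 to 0.866 CPM with TNF-α in promyelocytes and fell from 4.39, 3.74 and 5.77 to 1.18, 0.824 and 1.08 CPM in granulocytes (difference -3.62 ± 0.477). Its vehicle-treated promyelocyte libraries held 3 to 10 counts, at or near the floor. LINC00996 fell from 7.16, 8.97 and 7.61 to 3.26, 3.37 and 3.89 CPM in granulocytes, and in promyelocytes it had no count with vehicle and 0.0753 to 0.158 CPM with TNF-α, too close to the floor for a fold. For TTN-AS1 (difference -2.21), which rose in promyelocytes from 3.24 to 4.31 CPM to 11.4 to 13.6 CPM, the granulocyte decrease had an edgeR adjusted p of 0.0437, and 0.283 without vehicle library 3. BNIP3P41 (difference -2.29) is a pseudogene whose reads can belong to its parent gene.

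The largest enlargement was that of IL1RN, which encodes the antagonist of the interleukin 1 receptor. It rose from 1.70, 1.07 and 1.59 to 6.40, 4.29 and 6.46 CPM in promyelocytes and from 0.0385, 0 and 0.168 to 26.8, 24.9 and 23.3 CPM in granulocytes. The starting level in granulocytes was 0 to 5 counts per library, so the size of the fitted difference of 6.43 ± 0.456 (SE, edgeR adjusted p = 9.66e-12) depends on the small prior count of the fit. FSCN1, the actin bundling protein fascin, had no such limit: it rose from 103, 99.5 and 83.7 to 178, 195 and 222 CPM and from 5.12, 5.26 and 5.23 to 635, 556 and 527 CPM (difference 5.72 ± 0.143, edgeR adjusted p = 3.91e-15). In FSCN1, granulocytes started below the promyelocytes and ended above them. IRF8, a transcription factor of monocyte and dendritic cell development, rose from 1.97 to 2.38 CPM to 3.04 to 4.03 CPM in promyelocytes and from 0.193 to 0.430 CPM to 9.54 to 11.6 CPM in granulocytes (difference 4.19 ± 0.304).

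Among enlarged decreases, GFI1, a repressor needed for neutrophil development, fell from 194, 194 and 191 to 155, 154 and 159 CPM in promyelocytes and from 232, 237 and 237 to 50.5, 51.3 and 52.5 CPM in granulocytes (difference -1.88 ± 0.0687, edgeR adjusted p = 3.70e-20). KIT, the stem cell factor receptor, fell from 4.35, 3.42 and 4.83 to 1.99, 2.29 and 1.67 CPM and from 25.7, 25.9 and 25.3 to 2.71, 2.97 and 2.08 CPM (difference -2.20 ± 0.219). CEBPE, a factor of late granulocyte maturation, fell from 145, 133 and 128 to 90.6, 99.5 and 99.9 CPM and from 211, 197 and 225 to 101, 86.7 and 87.7 CPM (difference -0.71 ± 0.0889). All 3 stood higher in vehicle-treated granulocytes than in vehicle-treated promyelocytes. With TNF-α the granulocyte libraries overlapped those of the promyelocytes for KIT and CEBPE and lay below them for GFI1. FAM117B had a difference of -1.69.

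Of the 69 reduced increases, ICAM1, the ligand of leukocyte integrins, had the largest difference. It rose from 1.31, 1.58 and 1.97 to 125, 109 and 123 CPM in promyelocytes and from 132, 139 and 150 to 825, 728 and 703 CPM in granulocytes. Promyelocytes with TNF-α thus stayed under the granulocytes with vehicle. The log2 changes were 6.2 and 2.42, a difference of -3.78 ± 0.136 (SE, edgeR adjusted p = 6.70e-18). MYEOV rose from 0.0736 to 0.276 CPM to 2.03 to 3.94 CPM in promyelocytes and from 5.13 to 6.32 CPM to 13.4 to 14.7 CPM in granulocytes (difference -2.61 ± 0.376). GIMAP8 (promoter above) was at 0.0327, 0 and 0.173 CPM with vehicle and 1.24, 0.286 and 0.693 CPM with TNF-α in promyelocytes, and rose from 4.12, 3.54 and 4.26 to 8.00, 6.23 and 8.10 CPM in granulocytes (difference -2.42 ± 0.698, edgeR adjusted p = 0.0121).

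Reduced decreases were fewer, 31 genes, and smaller. TRIB1, a pseudokinase that limits C/EBP factors, fell from 470, 458 and 409 to 200, 214 and 229 CPM in promyelocytes and from 837, 900 and 926 to 789, 737 and 715 CPM in granulocytes (difference 0.81 ± 0.0854). ZFP36L2, an mRNA decay factor, fell from 255, 257 and 240 to 99.7, 106 and 116 CPM and from 212, 226 and 227 to 158, 162 and 164 CPM (difference 0.76 ± 0.0773). ATOSB had a difference of 1.17. Their treated and vehicle-treated libraries did not overlap in either cell type, which the naming rule required.

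The genes of the pathway itself were described as lists, which were chosen with earlier results known. The counts of every list below stand beside the 23.9% of all genes called different, 14% higher and 9.91% lower. The median difference over all genes was 0.03. Of the 11 NF-kB subunits and IkB inhibitors tested, 9 had a higher response in granulocytes and 1 a lower one, with a median difference of 1.03. NFKBIA rose from 24.3, 23.7 and 22.0 to 344, 344 and 348 CPM in promyelocytes and from 13.1, 13.7 and 12.6 to 635, 599 and 576 CPM in granulocytes (difference 1.63 ± 0.0832, edgeR adjusted p = 1.54e-16). BCL3 and NFKBID, atypical IkB proteins, differed by 1.61 and 1.26, and NFKB2, the p100 subunit, by 1.06. RELA, the subunit without a called change in promyelocytes, was at 65.2 to 79.6 CPM there with TNF-α and rose from 64.0, 65.4 and 68.2 to 82.0, 76.2 and 73.7 CPM in granulocytes (difference 0.28 ± 0.0892). REL was the reduced one, with a difference of -0.31 and a vehicle level of 45.6 to 49.0 CPM in promyelocytes and 154 to 162 CPM in granulocytes.

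Of 12 genes of the ubiquitin feedback on TNF-α signalling, 8 had a higher and 2 a lower response (median difference 0.80). TNFAIP3, which encodes A20, rose from 35.5, 35.8 and 35.0 to 445, 415 and 434 CPM in promyelocytes and from 25.2, 28.0 and 29.7 to 987, 940 and 911 CPM in granulocytes (difference 1.49 ± 0.0818). BIRC3 rose from 1.80, 1.36 and 1.45 to 76.0, 73.3 and 69.3 CPM and from 0.808, 0.530 and 0.839 to 228, 238 and 230 CPM (difference 2.77 ± 0.200, edgeR adjusted p = 1.08e-12). TRAF1, TNIP1 and TRAF3, which restrain or route signals from the receptors, differed by 2.73, 1.67 and 1.60. The lower ones were CYLD, a deubiquitinase with a reduced increase (difference -0.67), and TAX1BP1, an adaptor of A20 with a gained decrease (difference -0.39).

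The receptors and the kinases between them and NF-kB differed less, with 4 higher and 0 lower of 16 genes tested (the test, edgeR's quasi-likelihood, had a background of 14% higher and 9.91% lower). TNFRSF1A, which encodes TNFR1, fell in both cell types, from 135, 130 and 124 to 87.2, 88.7 and 97.3 CPM and from 209, 201 and 211 to 170, 150 and 153 CPM, and its responses were not called different (difference 0.11 ± 0.0792, edgeR adjusted p = 0.332). TNFRSF1B, which encodes TNFR2, also fell in both, with a difference of 0.16 ± 0.0955 (edgeR adjusted p = 0.254). MAP3K8 rose from 24.3, 25.7 and 26.6 to 46.1, 46.1 and 46.6 CPM in granulocytes and was at 13.8 to 15.7 CPM with vehicle and 16.7 to 17.8 CPM with TNF-α in promyelocytes (difference 0.65 ± 0.105). MAP3K14, the kinase of the noncanonical pathway, differed by 0.78. FADD, the adaptor of caspase 8, was classed as reversed with a difference of 0.52, but its single responses had edgeR adjusted p of 0.0421 and 0.0348 and its promyelocyte groups overlapped. CFLAR, the inhibitor of caspase 8, rose in both cell types, with a difference of 0.08 ± 0.0753 (edgeR adjusted p = 0.481).

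TNF itself rose from 21.3, 20.4 and 19.4 to 75.3, 77.1 and 73.6 CPM in promyelocytes and from 14.7, 14.1 and 14.6 to 94.2, 82.8 and 70.8 CPM in granulocytes. The TNF-α libraries of the cell types overlapped in level, and the difference of the changes was 0.63 ± 0.110 (SE, edgeR adjusted p = 4.76e-05). VCAM1 had 0 to 2 counts in vehicle-treated promyelocytes and 19.1, 20.4 and 18.7 CPM with TNF-α, at least 187-fold above the floor. In granulocytes it rose from 0.231, 0.132 and 0.168 to 89.2, 86.0 and 85.8 CPM, and the difference of -0.53 ± 0.674 was not called (edgeR adjusted p = 0.647).

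Of 18 cytokines and TNF superfamily ligands, 7 had a higher and 3 a lower response. IL1B rose from 14.5, 16.6 and 13.6 to 92.2, 95.3 and 89.9 CPM in promyelocytes and from 9.47, 10.2 and 10.4 to 342, 317 and 285 CPM in granulocytes (difference 2.34 ± 0.104, edgeR adjusted p = 1.39e-17). IL1A and IL12B, the other interleukins with an enlarged increase, differed by 2.85 and 2.15. LTB, which encodes lymphotoxin β, had a lost increase: it rose from 0.752, 0.773 and 0.380 to 2.79, 4.14 and 3.97 CPM in promyelocytes and was at 0.731 to 1.26 CPM with vehicle and 1.15 to 1.63 CPM with TNF-α in granulocytes (difference -2.12 ± 0.399). TNFSF9, the ligand of 4-1BB, had a reduced increase (difference -1.26).

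Among 13 chemokines, 6 had a higher and 2 a lower response. CCL5 rose from 41.3, 37.3 and 34.6 to 64.9, 69.6 and 72.2 CPM in promyelocytes and from 27.9, 23.7 and 30.4 to 245, 236 and 228 CPM in granulocytes (difference 2.25 ± 0.101, edgeR adjusted p = 1.87e-16). The neutrophil attractant CXCL8 and the chemokines CCL3 and CCL4 had enlarged increases with differences of 1.36, 2.42 and 1.46, where CCL4 can share reads with the copy CCL4L2. CCL1 and CCL2 were the reduced ones. CCL2, which attracts monocytes, rose from 139, 139 and 137 to 727, 730 and 709 CPM in promyelocytes and stood higher in every vehicle-treated granulocyte library than in any promyelocyte library (difference -1.25 ± 0.0805). CCL20 rose about equally, with a difference of -0.08 ± 0.163 (edgeR adjusted p = 0.770). CXCL10 had 0 counts in vehicle-treated granulocytes and with TNF-α stood at least 14.8-fold above the floor, and its fitted difference depends on the prior count. The list's median difference was 1.45 with the fitted values and 1.25 with the 3 genes at the floor set to their bounds.

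**Figure D4:**
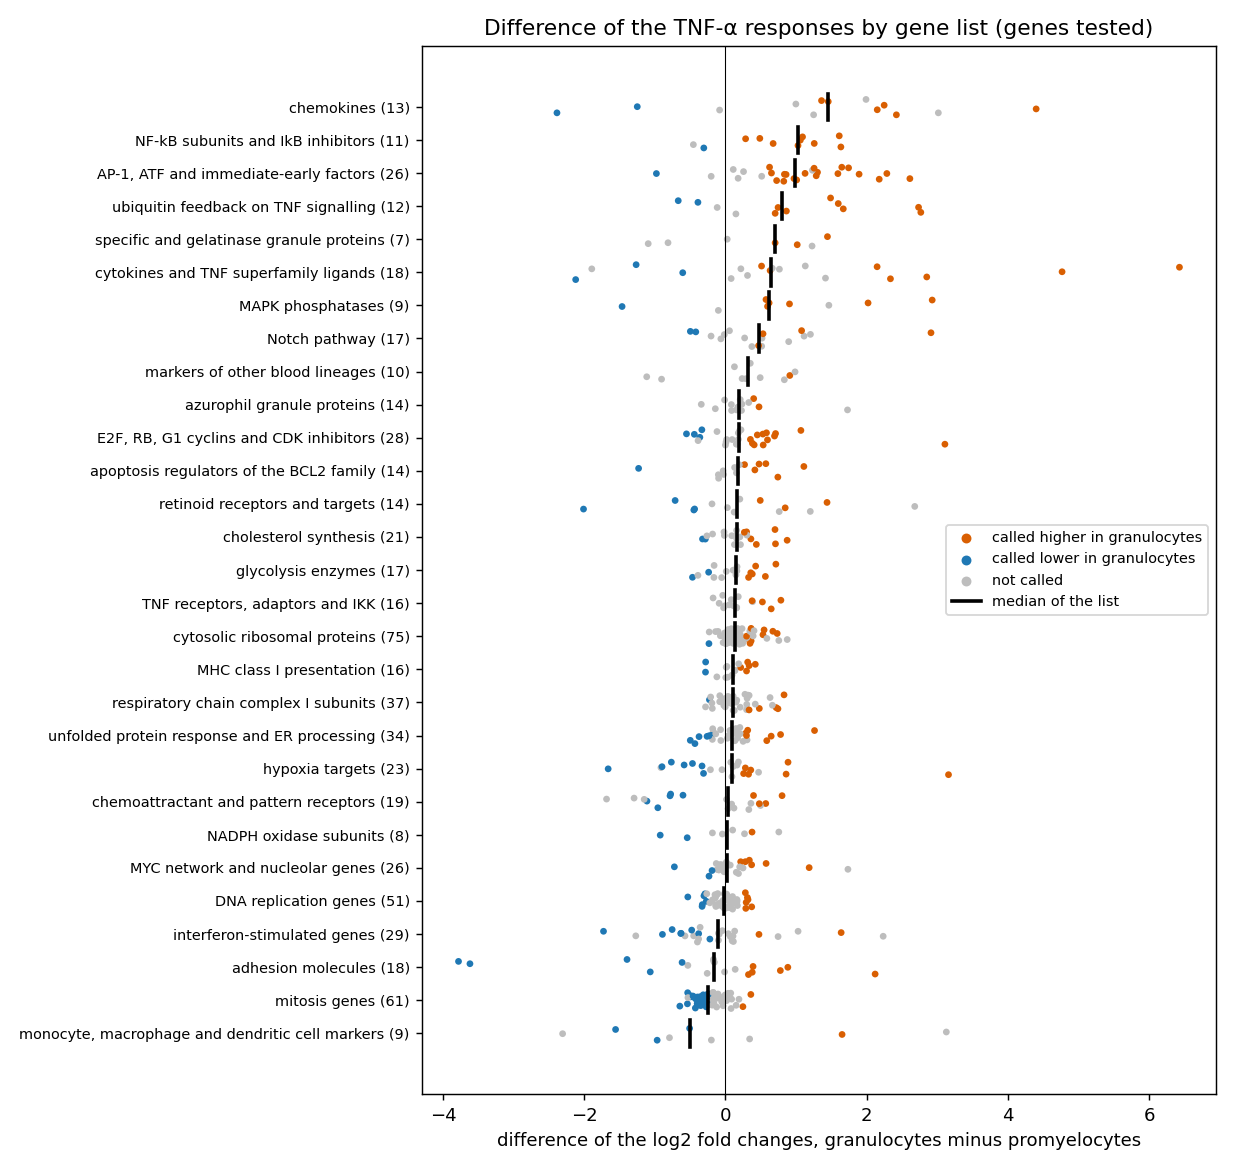
Difference of the log2 fold changes, granulocytes minus promyelocytes (horizontal axis), for the members of each gene list that were tested (points, coloured by the call), with the list's median as a black bar. The medians run from the monocyte, macrophage and dendritic cell markers at -0.51 and the mitosis genes at -0.24 to the chemokines at 1.45. The first of these rests on 9 genes and was 0.352 over 18 genes without the expression filter.

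Immediate-early and MAPK-linked genes had mostly higher responses in granulocytes. Of 26 AP-1, ATF and immediate-early factors, 19 were called higher and 1 lower, with a median difference of 0.99: 8 had a gained increase, 7 an enlarged increase, 2 a lost decrease and 2 were reversed. JUN, an AP-1 subunit, rose from 11, 9.56 and 8.18 to 17.1, 16.8 and 18.6 CPM in promyelocytes and from 22.8, 21.8 and 26.2 to 141, 128 and 120 CPM in granulocytes (difference 1.59, edgeR adjusted p = 3.18e-11). Of 9 phosphatases that switch MAPK off, 6 were higher and 1 lower. DUSP5 fell from 10.3, 9.90 and 8.98 to 7.6, 6.58 and 6.30 CPM in promyelocytes and rose from 14.8, 16.5 and 17.5 to 49.2, 46.6 and 43.0 CPM in granulocytes (difference 2.02 ± 0.133, edgeR adjusted p = 1.01e-13). DUSP6 and DUSP7 were reversed in the same way, with differences of 0.60 and 0.91, DUSP2 had an enlarged increase (2.93) and DUSP4 a reduced one (-1.46).

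Of 14 apoptosis regulators of the BCL2 family, 6 were higher and 1 lower. MCL1, which protects granulocytes from apoptosis, was at 157 to 169 CPM with vehicle and 173 to 181 CPM with TNF-α in promyelocytes and rose from 292, 313 and 313 to 494, 496 and 485 CPM in granulocytes (difference 0.57 ± 0.0707). BID, a proapoptotic member cut by caspase 8, had an enlarged increase (1.11). BCL2A1, an NF-kB target that blocks apoptosis, had a reduced one: it rose from 4.08, 2.91 and 4.94 to 21.1, 22.4 and 22.0 CPM and from 79.2, 76.3 and 72.8 to 183, 174 and 175 CPM (difference -1.23 ± 0.123).

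Adhesion molecules went both ways, with 6 higher and 5 lower of 18. CD44, the hyaluronan receptor, rose from 200, 199 and 191 to 327, 281 and 287 CPM in promyelocytes and from 33.6, 34.0 and 35.1 to 233, 222 and 222 CPM in granulocytes (difference 2.12 ± 0.0791, edgeR adjusted p = 3.83e-20). ITGAX, an integrin of activated phagocytes, had a gained increase (difference 0.78). SELPLG, the P-selectin ligand, and ITGA4, the integrin subunit that binds VCAM1, had enlarged decreases with differences of -1.06 and -0.61. Receptors of chemoattractants and microbes also split, with 4 higher and 5 lower of 19. TLR4, the lipopolysaccharide receptor, was at 37.6 to 43.1 CPM in the promyelocyte libraries and fell from 95.5, 96.1 and 92.1 to 56.5, 57.0 and 55.8 CPM in granulocytes (difference -0.78 ± 0.0828).

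Interferon-stimulated genes had lower responses in granulocytes for 8 of 29 and higher for 2. Among the lower ones, OAS3 and GBP5 rose in both cell types and less in granulocytes, with differences of -0.48 and -1.73. IFIT2, IFIT1, IFIT3, STAT2 and USP18 had gained decreases. IFIT2, an antiviral protein, was at 9.01 to 9.94 CPM with vehicle and 10.5 CPM with TNF-α in promyelocytes and fell from 10.3, 12.4 and 9.83 to 7.87, 5.73 and 5.65 CPM in granulocytes (difference -0.89 ± 0.169, edgeR adjusted p = 1.26e-04). The higher ones were GBP2, a GTPase also induced by interferon, with an enlarged increase (difference 1.64), and MX2, an antiviral GTPase, with a lost decrease (0.47), and the 2 became 1 without vehicle or TNF-α library 2 of the promyelocytes. Of 16 genes of MHC class I presentation, 5 were higher and 2 lower, all with differences under 0.5 in size.

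Of 61 mitosis genes, 29 were called lower in granulocytes (47.5%, beside 9.91% of all genes), 2 higher and 30 neither. Of the 29, 23 had a gained decrease, 4 a lost increase and 2 were reversed, and the median difference of the list was -0.24. CENPF, a kinetochore protein, was at 469 to 507 CPM in all promyelocyte libraries and fell from 259, 262 and 259 to 184, 181 and 178 CPM in granulocytes (difference -0.54 ± 0.0707, edgeR adjusted p = 4.11e-07). CCNA2, cyclin A2, and CKAP2, a spindle protein, differed by -0.49 and -0.65. TOP2A (promoter above) fell from 518, 542 and 518 to 420, 430 and 443 CPM in granulocytes and was at 704 to 789 CPM in promyelocytes (difference -0.35 ± 0.0735). CDK1, the mitotic kinase, was at 150, 130 and 142 CPM with vehicle and 170, 164 and 149 CPM with TNF-α in promyelocytes and at 114, 112 and 102 CPM and 84.6, 95.4 and 108 CPM in granulocytes. Both pairs of groups overlapped, and the difference of -0.38 ± 0.103 had an edgeR adjusted p of 0.00744, which became 0.223 once trends with GC content and gene length were taken out. With these trends removed the list held 19 lower and 4 higher calls and a median difference of -0.13, and with a minimum change of 1.2-fold it held 7 lower calls.

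With TMM, lower calls did not outnumber higher ones in the other lists of cell division genes. Of 28 E2F, RB, G1 cyclin and CDK inhibitor genes, 12 were higher and 4 lower. CDKN1A, which encodes the CDK inhibitor p21, was at 0.490, 0.699 and 0.829 CPM with vehicle and 1.2, 0.965 and 1.17 CPM with TNF-α in promyelocytes and rose from 1.16, 1.59 and 1.51 to 23.8, 19.2 and 18.4 CPM in granulocytes (difference 3.11 ± 0.329, edgeR adjusted p = 5.74e-09). Its promyelocyte groups did not overlap, and that response had an edgeR adjusted p of 0.05. RBL2, a pocket protein of quiescent cells, had a gained decrease (difference -0.55), and E2F6, a repressing E2F factor, a gained increase (0.59). Of 51 DNA replication genes, 6 were higher and 6 lower, near the 14% and 9.91% of all genes. Their median difference was -0.02, and with DESeq2's size factors 3 were higher and 8 lower. The higher ones also numbered 3 without vehicle library 1 of either cell type or without TNF-α treated granulocyte library 3. In the MYC network, 6 of 26 genes were higher and 3 lower (1 lower without vehicle library 2 or 3 of the promyelocytes, vehicle library 3 of the granulocytes or their TNF-α library 2 or 3), and the sign of the list's median turned with the scaling.

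GC content moved with these differences. The median difference rose over 10 equal bins of exonic GC content from -0.153 in the lowest bin to 0.269 in the highest, and the share of genes called higher rose from 5.30% to 26.1% while the share called lower fell from 19.1% to 2.54%. Median GC content was 52.6% in genes with a gained increase and 41.9% in genes with a gained decrease, 41.0% and 56.5% in genes with a lost increase and decrease, and 47.9% over all genes. Between libraries, the log2 level of GC-rich against GC-poor genes ranged from -0.305 in TNF-α treated promyelocyte library 1 to 0.283 in TNF-α treated granulocyte library 1. It was 0.123, 0.0711 and -0.0675 with vehicle and -0.305, -0.122 and 0.0391 with TNF-α in promyelocytes. In granulocytes it was -0.123, -0.148 and 0.00638 with vehicle and 0.283, 0.158 and 0.0562 with TNF-α. The cause of these trends was not tested. Once GC content and length trends had been taken out of every library, the median difference was 0.0337 in the lowest and 0.0313 in the highest bin. The number of calls was then 4435 (2767 higher, 1668 lower), of which 3262 were shared with the 4331 (75.3% of these and 73.6% of those). Of the reversed genes, 142 were shared, 60.9% of the 233 and 67.6% of the 210 found with the trends removed.

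**Figure D5:**
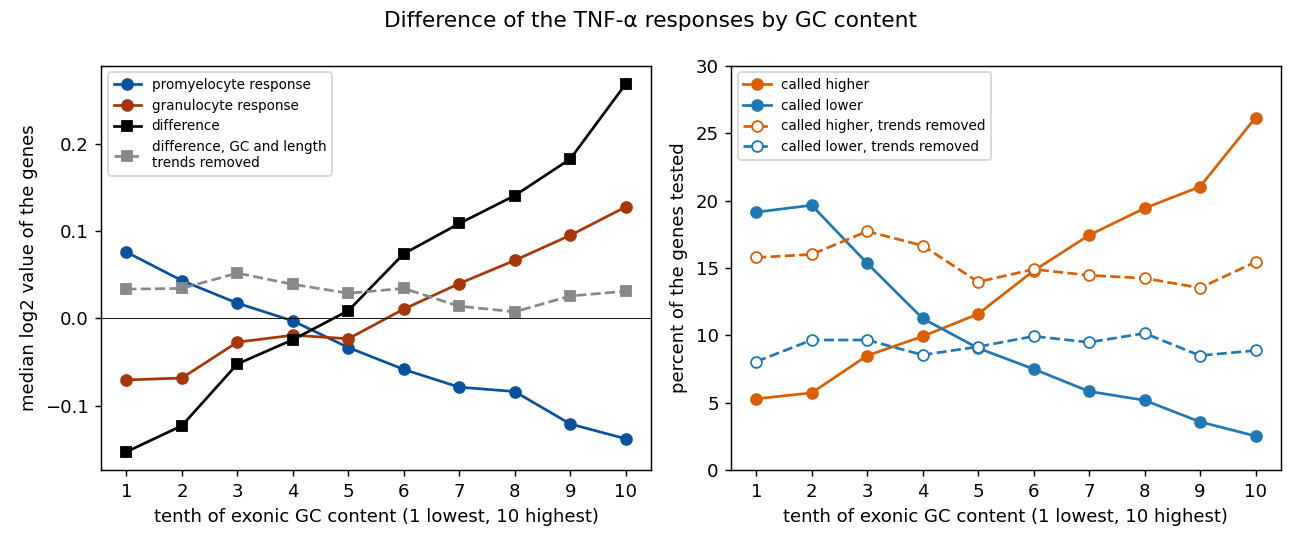
Left, median log2 value over the genes in each of 10 bins of exonic GC content for the promyelocyte response, the granulocyte response and their difference, with the difference after removal of GC and length trends as a dashed line; right, percent of the genes in each bin that were called higher or lower, before (solid) and after (dashed) removal. The solid black line runs from -0.153 to 0.269, and the dashed grey line starts at 0.0337 and ends at 0.0313.

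Metabolic and stress genes differed in both directions. Of 23 hypoxia targets, 7 were higher and 7 lower. SLC2A1, the glucose transporter GLUT1, fell from 91.2, 85.2 and 79.2 to 74.9, 68.9 and 78.6 CPM in promyelocytes and from 115, 119 and 128 to 36.7, 30.9 and 32.1 CPM in granulocytes (difference -1.66 ± 0.0942, edgeR adjusted p = 5.25e-15). VEGFA, the vascular growth factor, had an enlarged increase (0.89), PFKFB3, a glycolytic regulator, a gained one (0.86), and DDIT4, an inhibitor of mTORC1, was reversed (-0.90). Among 17 glycolysis enzymes 6 were higher and 2 lower: PKM, pyruvate kinase, rose from 882, 885 and 922 to 1441, 1321 and 1341 CPM in granulocytes and was at 1114 to 1369 CPM in promyelocytes (difference 0.71 ± 0.0839), whereas HK2, hexokinase 2, had a gained decrease (-0.47).

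Of 34 genes of the unfolded protein response and ER processing, 7 were higher and 6 lower. XBP1, a transcription factor of that response, had an enlarged increase (difference 0.78), ATF4, a factor of the integrated stress response, a gained increase (0.58), and HSPA5, the ER chaperone BiP, a gained decrease (-0.43). TRIB3, a pseudokinase induced by ATF4, fell from 38.9, 31.8 and 36.8 to 26.1, 26 and 25.8 CPM in promyelocytes and rose from 3.93, 4.11 and 3.76 to 7.10, 6.99 and 6.33 CPM in granulocytes (difference 1.26 ± 0.141). The 6 lower calls numbered 3 without vehicle library 2 of either cell type or without TNF-α treated granulocyte library 3. Of 21 cholesterol synthesis genes, 7 were higher and 2 lower, led by LSS, lanosterol synthase, with a gained increase (0.87).

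Few members of the housekeeping lists were called different. Of 75 cytosolic ribosomal protein genes, 9 were higher and 1 lower (median difference 0.13), and the 9 became 15 without TNF-α treated promyelocyte library 2 and 5 without vehicle-treated granulocyte library 2. Of 37 subunits of respiratory complex I, 5 were higher and 1 lower, and the 5 became 8 without vehicle-treated promyelocyte library 3 and 10 without TNF-α treated promyelocyte library 2. Both shares of higher calls were below or near the 14% of all genes.

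Of 14 retinoid receptors and targets, 3 were higher and 4 lower, and 4 of the 7 were reversed. DHRS3 and CD38 rose in promyelocytes and fell in granulocytes, and RET, a receptor kinase, and RXRA, the partner of the retinoic acid receptors, did the opposite, with differences of 1.44 and 0.49. CD38 rose only slightly in promyelocytes, where its groups overlapped (6.99 to 9.91 CPM with vehicle, 9.68 to 11.2 CPM with TNF-α). TGM2, transglutaminase 2, was at 0.359 to 0.828 CPM in promyelocytes and rose from 164, 168 and 183 to 395, 350 and 366 CPM in granulocytes (difference 0.85 ± 0.275). Of 17 Notch pathway genes, 4 were higher and 2 lower: the ligand JAG1 was reversed, from 17, 16 and 16.6 to 9.67, 9.01 and 9.83 CPM in promyelocytes and from 8.55, 7.35 and 8.45 to 10.3, 9.21 and 10.1 CPM in granulocytes (difference 1.08 ± 0.141), and its granulocyte increase was not called without vehicle library 2 or TNF-α libraries 1 or 3.

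Granule genes and markers of other cells completed the lists. Of 14 azurophil granule genes 2 were called higher (SRGN and PRTN3) and 0 lower in edgeR. That share of higher calls was near the 14% of all genes, and PRTN3 was not called with GC content and length trends removed. Of 7 specific and gelatinase granule genes tested, 3 were higher: CHI3L1, MMP9 and MMP25, with differences of 1.44, 1.02 and 0.70. Of 20 markers of monocytes, macrophages and dendritic cells 9 were tested, with 1 higher and 3 lower. CD83 rose from 15.1, 11.7 and 11.6 to 72.4, 73.4 and 72.6 CPM in promyelocytes and from 4.97, 6.12 and 4.73 to 95.4, 96.8 and 90.3 CPM in granulocytes (difference 1.65, edgeR adjusted p = 6.55e-12). CD40, a TNF receptor family member, rose from 0.0736 to 0.276 CPM to 11.9 to 13.9 CPM in promyelocytes and from 5.43 to 6.91 CPM to 159 to 168 CPM in granulocytes (difference -1.56 ± 0.330), while FCGR1A and CD86 were lower through decreases in granulocytes. The summed level of these markers was 30.8 to 36.9 CPM in vehicle-treated and 102 to 106 CPM in TNF-α treated promyelocytes, and 116 to 125 and 319 to 335 CPM in granulocytes. CD40 and CD83 made up most of the TNF-α sums, with means of 12.6 and 72.8 CPM in promyelocytes and 165 and 94.2 CPM in granulocytes. Of the 9 markers tested, 4 increased and 2 decreased in promyelocytes. In granulocytes 3 increased and 4 decreased, with a median log2 change of 0. LAMP3, a dendritic cell marker whose responses were not called different, had 0 or 1 counts in vehicle-treated granulocytes. With TNF-α it stood at least 32.2-fold above the floor there. The list's median difference was -0.51 over the 9 markers and 0.352 over the 18 fitted without the expression filter, so its sign depends on the filter. MARCO and MSR1 were at 0 in every library, and CD14, CD163, CD68 and MRC1 were too low to be tested. Of 24 markers of other blood lineages 10 were tested and 1 was called higher (PRG2), with summed levels of 56.9 to 63.8, 45.6 to 48.6, 91.4 to 97.3 and 84.9 to 91.9 CPM in the same order, and HBB, HBA1, HBA2, ALAS2, MS4A1 and PF4 at 0 in every library. Their part in the results was not tested.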

How the data were processed

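RNA of HL-60/S4 promyelocytes and granulocytes, with vehicle or TNF-α, was measured in 12 strand-specific libraries of ribosomal RNA depleted total RNA, 3 per group, grouped by their labels. The authors aligned read pairs with STAR (2.5.3a in the submitters' processing notes) to hg38 and counted them on GENCODE 27 genes with featureCounts (1.5.2, strand option 2), and deposited raw counts per gene without normalization. Pairs on exons of several genes of 1 strand, and pairs from near-identical copies, can be lost or split by such counting.

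All 12 libraries were fitted together in edgeR 4.0.16 (R 4.3.3): filterByExpr (minimum count 10, minimum total 15), TMM, 4 group means, a robust quasi-likelihood fit, and p-values adjusted by Benjamini-Hochberg over the 18124 genes, with a threshold of 0.05. The common biological coefficient of variation was 0.0599. Standard errors come from the log2 value and its F statistic, and CPM are counts on TMM library sizes. Replicates of a group differed by 3.59 to 14.1 times the squared difference that counting error gives. Of the identifiers, 57532 were given a symbol and 756 had none.

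The genes of the text and the lists were chosen with earlier results of these data known. Named were, among genes called different with a symbol, mean log2 CPM no lower than 1 and TNF-α and vehicle libraries that did not overlap in each cell type with a called response, the 5 largest differences in each gained and reversed class and the 3 largest in each other class; TNF, VCAM1, CDK1, TNFRSF1A and TNFRSF1B; from each list the 3 members with the smallest interaction p; and other list members beside their list's counts. Some genes that this rule names are not reported here and remain in the counts. The alternatives were other scalings, no filter, DESeq2 1.42.0, limma 3.58.1 voom, a replicate block, thinned counts, other thresholds, removal of GC content and length trends, single responses from separate fits, and leaving out each library. On simulated data the procedure recovered most changed genes, with a share of false calls above the nominal one. Calls were mostly false where a GC trend was simulated in the TNF-α treated granulocyte libraries alone and not removed. The simulated trend differs from those of the data, which varied between groups and also between replicates of a group. The share of calls in the data that rest on GC trends was not tested. Promoters are RefSeq windows, printed only where no annotated exon lies in them and the marked motif is present. Plots used matplotlib 3.10.9.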

Additional observations from a re-analysis of the deposited data

Results flagged for a closer look

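A difference between the cell types in the response to TNF-α was found, by the interaction test of edgeR, for 4331 genes, and 233 of them changed in opposite directions. Each named gene below was flagged because its own interaction test passed the threshold, and the value in brackets is the difference of the log2 changes, granulocytes minus promyelocytes. Gained increases were SLAMF7 (4.27), OSGIN1 (4.21), TNFAIP8L3 (3.40), SLAMF8 (3.16) and ADM (3.16), and gained decreases were ZBTB7C (-2.38), PFKFB2 (-2.36), TAPT1-AS1 (-2.19), TRD-AS1 (-2.13) and CEACAM1 (-1.97). Lost responses were those of SOCS1 (-2.83), HIC1 (-1.94) and MTCO1P11 (-1.33), which had increased in promyelocytes, and of TNFRSF12A (1.99), LTBP3 (1.55) and ZFPM1 (1.5), which had decreased.

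Genes that rose in promyelocytes but fell in granulocytes were LINC00996 (-6.04), BNIP3P41 (-2.29), TTN-AS1 (-2.21) and DHRS3 (-2.01), and the opposite held for GPR157 (4.11), FAM30A (3.83), RAB7B (3.72), SPRY4 (3.33) and BCL6 (2.61). Enlarged in granulocytes were the increases of IL1RN (6.43), FSCN1 (5.72) and IRF8 (4.19) and the decreases of KIT (-2.20), GFI1 (-1.88) and FAM117B (-1.69). Reduced were the increases of ICAM1 (-3.78), MYEOV (-2.61) and GIMAP8 (-2.42) and the decreases of ATOSB (1.17), TRIB1 (0.81) and ZFP36L2 (0.76). The fitted values of LINC00996, FAM30A, IL1RN, TNFAIP8L3, ZBTB7C, CEACAM1, SLAMF7, PFKFB2, TRD-AS1, MYEOV and GIMAP8 rest on a group at or near the floor of 3 counts and depend on the prior count.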

How the results depend on the processing

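With an adjusted p threshold of 0.01, 2883 genes differed (1155 lower), with 172 lost, 98 reversed, 439 enlarged and 58 reduced. With a minimum change of 1.2-fold, 1908 differed (1232 higher, 676 lower), with 1316 gained, 112 lost, 30 reversed, 231 enlarged and 32 reduced, and 7 mitosis genes lower. Removing GC content and length trends left 19 mitosis genes lower. Leaving out each library gave 3623 to 4532 genes that differed, 227 to 510 lost and 153 to 354 reversed, the lowest of the last 2 without vehicle-treated promyelocyte library 1 and the highest without TNF-α treated promyelocyte library 3. The share of higher calls was 58.5% with TMM and 64.6% with the minimum change, and gained increases against decreases were 1567 and 1191 with TMM, 1377 and 1441 with TMM within each cell type, 1149 and 1518 in DESeq2 and 1141 and 1746 without the filter. The cause was not tested. With single responses from separate fits 196 genes were reversed, 162 of them among the 233 (69.5% of these, 82.7% of those).

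Replicate numbers did not pair the libraries: residuals of same-numbered libraries correlated at -0.105 to -0.00594. With the replicate block 3410 genes differed, 219 were lost and 136 reversed, 135 of these among the 233. The 126 named values included the 3 members of each list with the smallest p. None that was called in the main fit or in the setting changed its sign under any of the 23 settings. Sign changes of differences called in neither were not counted. Of the 126, 110 to 126 stayed on their side of the threshold. The medians of the MYC network, NADPH oxidase and chemoattractant receptor lists turned negative under other scalings. That of the monocyte, macrophage and dendritic cell markers turned positive without the expression filter. With 3 libraries per group, differences near the threshold and genes near the floor are the least certain, and neither baseline levels nor differences of responses can be separated from the 2 experiments. List counts of 1 or 2 genes moved by at most 2 when single libraries were left out.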
